A study of Drosophila melanogaster with 6 samples.

Results

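The genes of the phosphoinositide cycle that serves phototransduction were followed between photoreceptor nuclei and whole heads of *Drosophila melanogaster*. They were chosen by gene symbol: *norpA*, *rdgA*, *inaE*, *laza*, *Cds*, *Pis*, *rdgB*, *PI4KIIIalpha*, *PIP5K59B* and *sktl*. All 10 members were found among the 17558 genes of the count table, and all 10 passed the filter on low counts. The data are RNA-seq counts from 3 post-isolation and 3 pre-isolation samples of pooled male flies aged 10 days. Post-isolation samples hold nuclear RNA from affinity-isolated GFP-tagged nuclei, labelled as photoreceptor neurons of the adult retina. Pre-isolation samples hold total RNA labelled as adult head. The flies of both groups share the genotype w;; UAS-GFP-Msp300KASH at attP2 with rh1-GAL4 and ry506, so that *Rh1-Gal4*, a driver active in the outer photoreceptors R1 to R6, directs a GFP tag to the nuclear envelope. The groups differ in cell type and in RNA fraction at once, and these cannot be told apart. Fewer cells of a type and less RNA per cell cannot be told apart either.

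In fly photoreceptors, light-activated rhodopsin acts through a Gq protein on phospholipase C, which cleaves the membrane lipid PIP2 into diacylglycerol and inositol trisphosphate and leads to opening of the TRP and TRPL channels. The lipid is then rebuilt: diacylglycerol is phosphorylated to phosphatidic acid, converted through CDP-diacylglycerol to phosphatidylinositol in the endoplasmic reticulum, carried back to the plasma membrane, and phosphorylated in consecutive steps to PIP2. Several of these genes were named from mutant eyes, after a missing receptor potential (*norpA*), retinal degeneration (*rdgA*, *rdgB*) or an inactivation without an afterpotential (*inaE*).

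Gene counts summed to 11693481 to 14522962 per post-isolation sample and to 9999540 to 11232033 per pre-isolation sample. The values below are CPM (a gene's count relative to the library's size) scaled by TMM, a normalization that aligns the bulk of genes between samples. Of 12 photoreceptor markers, 10 were post-enriched (all but *ninaE*, the rhodopsin of R1 to R6, at a log2 fold change of 0.86, and *Arr2*), and none of 9 glia markers passed the threshold in either direction, their log2 fold changes having a median of -0.82. Lower against no change (edgeR) were 8 of the 9 glia markers and 5 of 6 brain neuron markers. Among the latter, *Gad1* (-1.43) was post-reduced. The summed glia markers held 1062 to 1445 CPM post-isolation and 2295 to 2457 CPM pre-isolation, and the summed brain neuron markers 706 to 1178 CPM post-isolation and 1399 to 1486 CPM pre-isolation. Of 6 genes listed as pigment and cone cell markers, *w* (log2 fold change 3.60) and *ninaG* (2.66) were post-enriched, and *Pdh* (-1.49) was post-reduced. Against no change, 4 were higher (edgeR): *w*, *ninaG*, *ninaB* (0.70) and *Crys* (0.42). Whether each of the 6 marks only these cells was not tested. The UAS transgene of both groups carries a w+ marker, so counts of *w* need not come from the endogenous gene alone. The summed pigment and cone cell markers held 1510 to 2118 CPM post-isolation and 1876 to 2098 CPM pre-isolation. In post-isolation replicate 3, *w* had 431 CPM, against 903 and 859 CPM in the other post-isolation samples, and *ninaG* was likewise lowest there. Of 6 Johnston's organ neuron markers from the antenna, 0 passed the 2-fold threshold, with a median of 0.67, and 3 were higher against no change (edgeR). The paper found the driver expressed in antennae as well. It holds that mechanosensory neurons most likely contributed a minor part of the enriched nuclei. Of the tested genes, 13 of 18 mitochondrial-encoded genes and 53 of 76 ribosomal protein genes were post-reduced. Post-isolation replicate 3 stood apart within its group. It was the lowest post-isolation sample for all 12 photoreceptor markers and the highest for all 9 glia markers and for 5 of 6 brain neuron markers. The part of these differences in the results below was not tested.

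Of the 10 members, 7 were post-enriched and 0 were post-reduced, meaning that the change was larger than 2-fold at an FDR below 0.05 (edgeR glmTreat, Benjamini-Hochberg over 10378 tested genes). Among all tested genes 7.29% were post-enriched and 4.89% post-reduced. At an unadjusted p under 0.05 in the same test, 0 members were lower, and DESeq2 also called 7 higher and 0 lower. The median log2 fold change of the members was 1.86, against -0.066 over all tested genes. The genes past the threshold were *norpA*, *rdgA*, *Cds*, *Pis*, *rdgB*, *PI4KIIIalpha* and *PIP5K59B*. *inaE*, *laza* and *sktl* did not pass. Against no change, without a minimum fold, 8 members were higher and 1 was lower at an FDR below 0.05, where 24.4% and 26.1% of all tested genes were. Every post-isolation sample lay above every pre-isolation sample for 8 members and below for 1, patterns met by 28.0% and 30.1% of all tested genes.

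**Figure D1:**
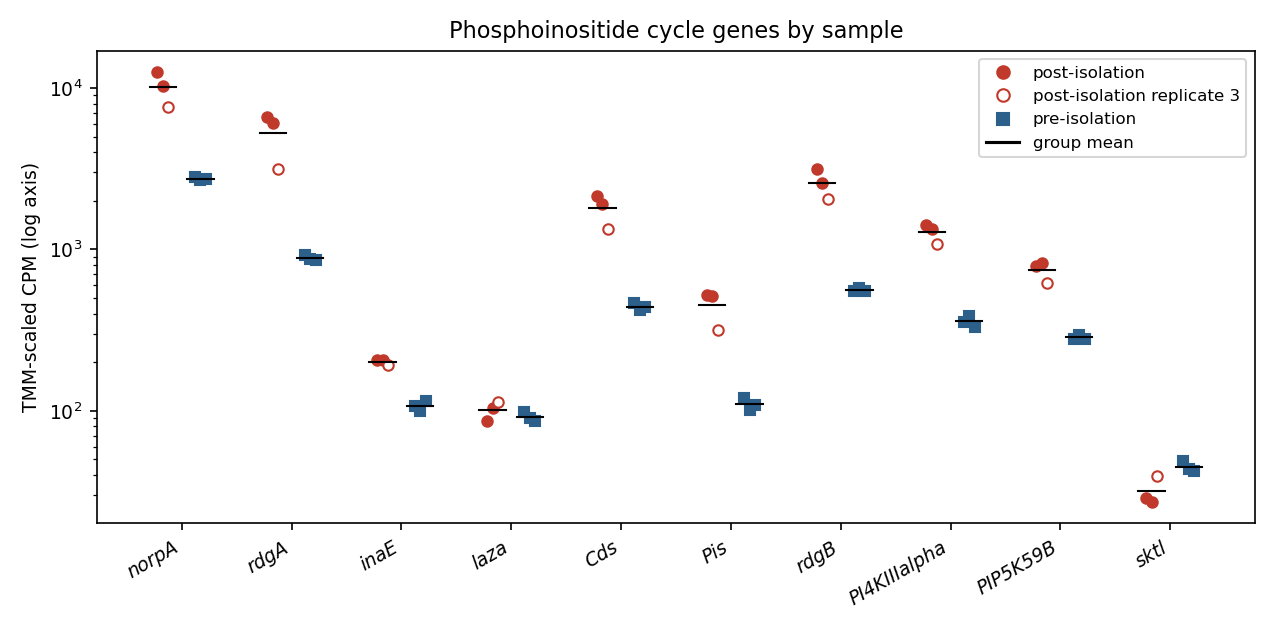
Level of each of the 10 genes in every sample, in TMM-scaled CPM on a log axis, with post-isolation samples left of pre-isolation samples, post-isolation replicate 3 as an open point and horizontal bars at the group means. Post-isolation samples lie above pre-isolation samples for 8 genes and below for *sktl*, and the groups overlap for *laza*.

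*norpA* (FBgn0262738, BDGP6 chromosome X, 4322626 to 4365408, + strand, 19 merged exons) encodes the phospholipase C that cleaves PIP2. It measured 12543, 10311 and 7632 CPM in the 3 post-isolation samples, against 2805, 2694 and 2720 CPM in the 3 pre-isolation samples. The groups did not overlap, and the lowest post-isolation value was 2.72 times the highest pre-isolation value. The log2 fold change was 1.89 ± 0.18 (SE; 95% interval 1.51 to 2.27), with an FDR of 0.000281 by edgeR glmTreat. The spread lay on the post-isolation side, with 10162 ± 2459 CPM there and 2739 ± 58.0 CPM pre-isolation (SD, n = 3 each).

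The diacylglycerol made by phospholipase C has several fates, and the 3 genes that act on it or form it again differed in their values. *rdgA* (FBgn0261549, X, 8907068 to 9029476, + strand) encodes the kinase that turns diacylglycerol into phosphatidic acid. It measured 6650, 6093 and 3165 CPM post-isolation, against 930, 872 and 863 CPM pre-isolation. All post-isolation samples were high, with replicate 3 well under the others but still 3.40 times the highest pre-isolation sample. Its log2 fold change of 2.58 ± 0.22 (SE; 95% interval 2.102 to 3.05; FDR 1.29e-05, edgeR glmTreat) was the highest of the 10 members, at rank 281 of the 10378 tested genes.

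*inaE* (FBgn0261244, X, 13783714 to 13811493, + strand) encodes a diacylglycerol lipase, which releases monoacylglycerol and fatty acid. It measured 206, 206 and 191 CPM post-isolation, against 107, 99.6 and 116 CPM pre-isolation. The groups did not overlap and the post-isolation samples were close to each other. The log2 fold change was 0.91 ± 0.12 (SE; 95% interval 0.66 to 1.16), which did not pass the 2-fold test (FDR 1.00, edgeR glmTreat) and did pass the test against no change (FDR 1.38e-05, edgeR).

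*laza* (FBgn0037163, chromosome 3L, 22458816 to 22461131, - strand, 1 exon) encodes a phosphatidic acid phosphatase, which runs the step of *rdgA* in reverse. It measured 86.4, 104 and 114 CPM post-isolation, against 98.5, 90.5 and 86.7 CPM pre-isolation. The groups overlapped, and the lowest of all 6 values was a post-isolation one. The log2 fold change was 0.14 ± 0.13 (SE; 95% interval -0.15 to 0.43; FDR 0.412 against no change, edgeR), and it was -0.30 when samples were scaled by library size alone. That scaling moved the median of all tested genes to -0.51, against -0.066 with TMM, and relative to the median *laza* lay at 0.22 and 0.21.

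Resynthesis and transfer of phosphatidylinositol gave the most uniform group, with all 3 genes post-enriched at log2 fold changes between 2.03 and 2.21. *Cds* (FBgn0010350, 3L, 8127762 to 8131675, + strand) encodes CDP-diacylglycerol synthase. It measured 2144, 1921 and 1343 CPM post-isolation, against 463, 420 and 437 CPM pre-isolation. The samples of the groups were far apart, and the log2 fold change was 2.03 ± 0.16 (SE, FDR 2.79e-05, edgeR glmTreat).

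*Pis* (FBgn0030670, X, 15701451 to 15703770, - strand) encodes phosphatidylinositol synthase, the enzyme of the next step. It measured 520, 515 and 315 CPM post-isolation, against 120, 101 and 109 CPM pre-isolation. Its post-isolation samples were all higher, replicate 3 least so, and its log2 fold change was 2.03 ± 0.17 (SE, FDR 5.84e-05, edgeR glmTreat). *Cds* and *Pis* both had the same fold of 4.09.

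*rdgB* (FBgn0003218, X, 13762752 to 13779488, + strand) encodes the phosphatidylinositol transfer protein at contacts between the endoplasmic reticulum and the plasma membrane of photoreceptors. It measured 3164, 2574 and 2048 CPM post-isolation, against 553, 574 and 551 CPM pre-isolation. The gap between groups was the widest of the 10 genes, with the lowest post-isolation sample at 3.57 times the highest pre-isolation sample. The log2 fold change was 2.21 ± 0.16 (SE; 95% interval 1.88 to 2.55; FDR 4.66e-06, edgeR glmTreat).

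The kinases that turn phosphatidylinositol into PIP2 were not uniform. *PI4KIIIalpha* (FBgn0267350, X, 2624804 to 2633672, + strand) encodes the 4-kinase of the plasma membrane. It measured 1420, 1335 and 1076 CPM post-isolation, against 356, 388 and 332 CPM pre-isolation. The post-isolation samples were all higher and varied less between themselves than those of *rdgA* or *norpA*, and the log2 fold change was 1.83 ± 0.13 (SE, FDR 4.18e-05, edgeR glmTreat).

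Of the pair of phosphatidylinositol 4-phosphate 5-kinases, which form PIP2, *PIP5K59B* was higher and *sktl* lower. *PIP5K59B* (FBgn0034789, chromosome 2R, 22874769 to 22881436, + strand) measured 794, 826 and 620 CPM post-isolation, against 280, 294 and 280 CPM pre-isolation. The groups did not overlap, and the log2 fold change was 1.39 ± 0.13 (SE; 95% interval 1.12 to 1.67; FDR 0.0100, edgeR glmTreat). This call was the least stable of the 7: without post-isolation replicate 2 the log2 fold change was 1.31 with an FDR of 0.0517, and with library size alone it was 0.94 with an FDR of 0.935 (edgeR glmTreat). Relative to the median of all tested genes, *PIP5K59B* lay at 1.45 with library size alone and at 1.46 with TMM.

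*sktl* (FBgn0016984, 2R, 20827282 to 20836028, - strand) was the only member with a negative fold change. It measured 28.7, 27.3 and 39.2 CPM post-isolation, against 48.6, 43.3 and 42.3 CPM pre-isolation. All post-isolation samples were lower, and replicate 3 came close to the lowest pre-isolation sample. The log2 fold change of -0.50 ± 0.17 (SE; 95% interval -0.86 to -0.14) did not pass the 2-fold test (FDR 1.00, edgeR glmTreat) and passed the test against no change (FDR 0.0238, edgeR). These values rest on 297 to 430 raw counts per post-isolation sample and 496 to 634 per pre-isolation sample, the fewest of any member. In the annotation *sktl* shares 359 exon bases on the same strand with *insc*, so its count is uncertain where reads could belong to either gene. *Cds* and *PIP5K59B* overlap exons of other genes on the opposite strand only, which strand-specific counting keeps apart.

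Summed, the 10 genes took 2.21%, 2.00% and 1.55% of all gene counts in the post-isolation samples, against 0.669%, 0.649% and 0.649% in the pre-isolation samples. Replicate 3 gave the lowest share post-isolation, still above every pre-isolation sample. *norpA* made up 45.5%, 43.1% and 46.1% of these counts post-isolation, and 48.7%, 48.3% and 49.1% pre-isolation.

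Post-isolation replicate 3 was the lowest post-isolation sample for all 7 post-enriched members, at 0.497 to 0.781 of the mean of the other post-isolation samples. It was the highest for *laza* and *sktl*. Without it, the log2 fold changes were 2.88 for *rdgA*, 2.40 for *rdgB*, 2.28 for *Pis*, 2.25 for *Cds*, 2.103 for *norpA*, 1.98 for *PI4KIIIalpha* and 1.55 for *PIP5K59B*. The same 7 genes passed the 2-fold test. *inaE* stood at 0.99 with an FDR of 0.775 (edgeR glmTreat), *laza* at 0.088 and *sktl* at -0.63.

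Levels of different genes were compared per kilobase of merged exons, again as TMM-scaled CPM. *norpA* had the highest level, with 1225 ± 296 CPM per kb post-isolation and 330 ± 6.99 CPM per kb pre-isolation (SD, n = 3 each). *Cds* was next, with 691 ± 158 CPM per kb post-isolation and 169 ± 8.33 CPM per kb pre-isolation. These leading positions were held in both groups without overlap between neighbouring genes.

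In the middle of the order, neighbouring genes overlapped post-isolation. *rdgA* (385 ± 136 CPM per kb), *rdgB* (280 ± 60.2), *Pis* (272 ± 70.6) and *PI4KIIIalpha* (181 ± 25.4) each overlapped the next gene over the 3 post-isolation samples. *PIP5K59B* (166 ± 24.6), which *PI4KIIIalpha* overlapped, was apart from *laza* below it. Genes further apart in the order could be separated, since every sample of *rdgA* and *rdgB* lay above every sample of *PI4KIIIalpha* and *PIP5K59B*. In pre-isolation samples these same genes lay between 50.8 ± 3.96 CPM per kb for *PI4KIIIalpha* and 66.5 ± 5.71 CPM per kb for *Pis*. *laza*, *inaE* and *sktl* formed the low end in both groups, each apart from its neighbours.

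Per kilobase, *laza* had 43.8 ± 6.002 CPM post-isolation and 39.7 ± 2.60 CPM pre-isolation. *inaE* had 28.2 ± 1.20 CPM per kb post-isolation and 15.05 ± 1.13 CPM per kb pre-isolation. *sktl* had 7.73 ± 1.59 CPM per kb post-isolation and 10.9 ± 0.816 CPM per kb pre-isolation. The level of *norpA* was 167 ± 62.6 times that of *sktl* post-isolation and 30.4 ± 1.64 times pre-isolation. Dividing by the longest transcript instead of merged exons left every position of the order in place post-isolation and changed 4 positions pre-isolation.

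**Figure D2:**
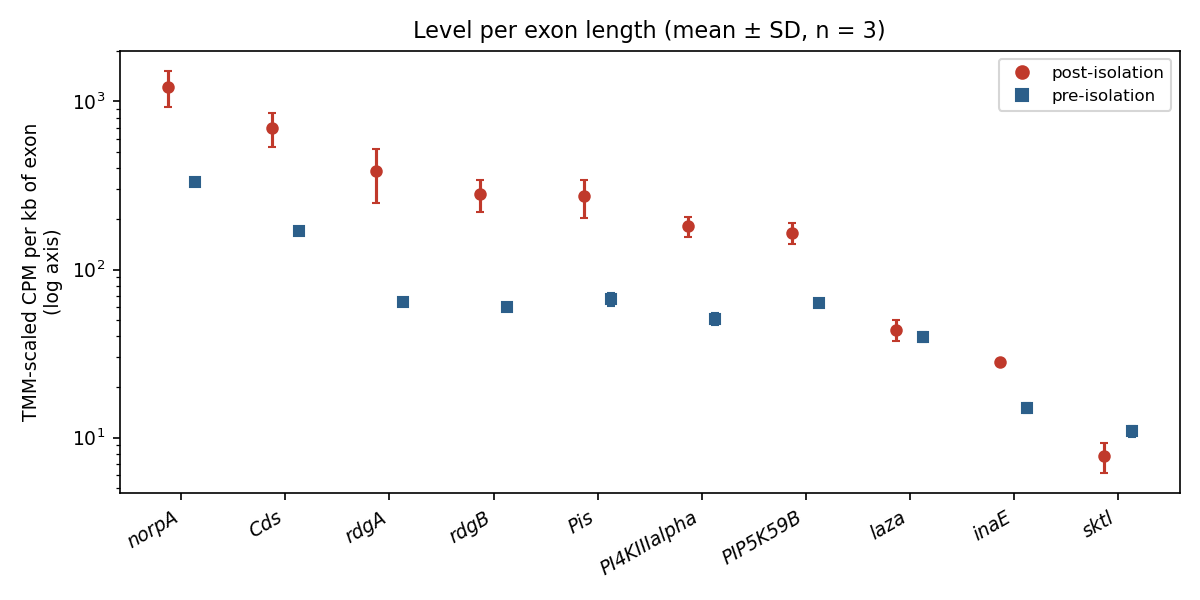
Level of each gene per kilobase of merged exons, in TMM-scaled CPM per kb on a log axis, with points for the mean and bars for the SD over 3 samples, post-isolation left of pre-isolation. *norpA* and *Cds* lead in both groups, and *sktl* is lowest in both, at 7.73 CPM per kb post-isolation and 10.9 CPM per kb pre-isolation.

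Ratios of raw counts within a sample need no scaling between samples, and 5 were computed for genes of the same or linked reactions. With 3 samples per group, the exact two-sided permutation test cannot give a p below 0.1, or 0.125 after Benjamini-Hochberg adjustment over the 5 ratios. The ratio of *PIP5K59B* to *sktl*, which catalyse the same reaction, was 27.6, 30.2 and 15.8 post-isolation, against 5.77, 6.78 and 6.60 pre-isolation. The groups did not overlap, and the log2 ratio differed by 1.89 (exact permutation p = 0.1).

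*norpA* was also set against *Plc21C*, the other phospholipase C of the beta class in the fly. That ratio was 72.4, 62.0 and 36.8 post-isolation, against 9.41, 9.17 and 8.69 pre-isolation, a log2 difference of 2.59 (exact permutation p = 0.1). *Plc21C* itself measured 173, 166 and 208 CPM post-isolation, against 298, 294 and 313 CPM pre-isolation. Its post-isolation samples were all lower. The log2 fold change of *Plc21C*, -0.73 ± 0.12 (SE), did not pass the 2-fold test and passed the test against no change (FDR 0.000146, edgeR).

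The ratio of *rdgA* to *laza*, which drive opposite reactions, was 76.9, 58.7 and 27.8 post-isolation, against 9.44, 9.63 and 9.95 pre-isolation. All post-isolation ratios were higher, by 2.37 on the log2 scale (exact permutation p = 0.1). The ratio of *norpA* to *inaE* was 60.8, 49.97 and 39.9 post-isolation, against 26.3, 27.0 and 23.5 pre-isolation, a log2 difference of 0.95 (exact permutation p = 0.1), so *inaE* was higher by less than *norpA* in every comparison of samples. For these ratios that differed, post-isolation replicate 3 gave the post-isolation value nearest the pre-isolation samples.

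*Cds* and *Pis*, which catalyse consecutive steps, kept nearly the same proportion. Their ratio was 4.12, 3.73 and 4.26 post-isolation, against 3.88, 4.17 and 3.99 pre-isolation. The groups overlapped, the log2 ratio differed by 0.0068 (exact permutation p = 1), and the 9 differences between a post-isolation and a pre-isolation sample ran between -0.16 and 0.14. Post-isolation replicate 3, low for each gene singly, did not stand below the others in this ratio.

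**Figure D3:**
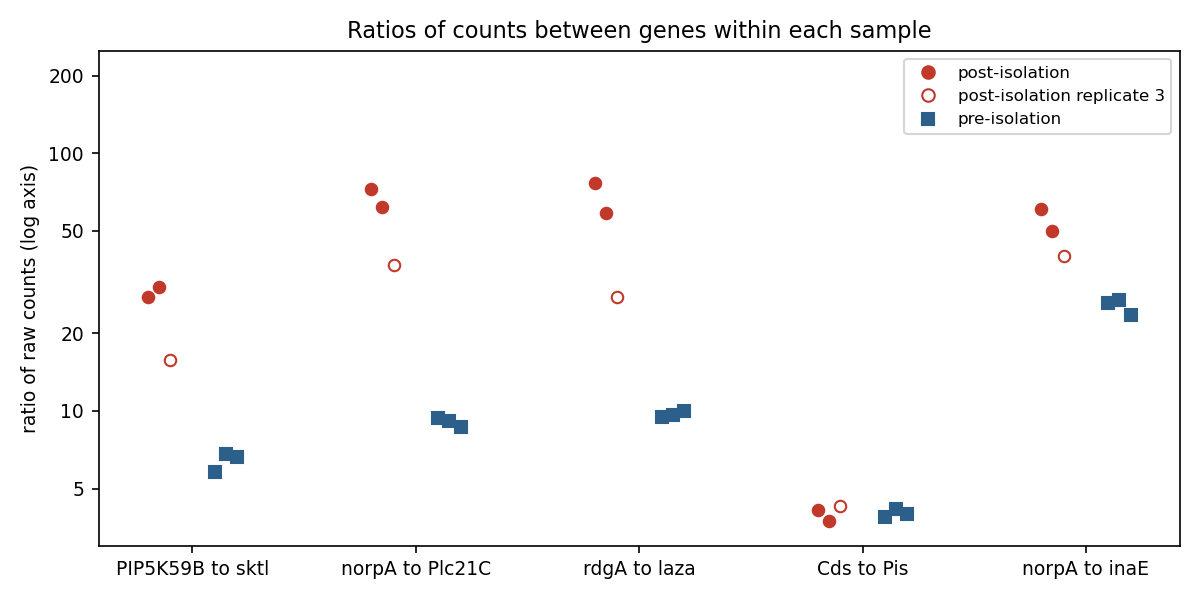
Ratio of raw counts between paired genes in every sample, on a log axis, with post-isolation samples left of pre-isolation samples and post-isolation replicate 3 as an open point. The groups are apart for 4 ratios and overlap for *Cds* to *Pis*, which lies between 3.73 and 4.26 in all 6 samples.

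A wider list held 49 further genes of phosphoinositide and inositol phosphate metabolism, of which 43 were tested. Among them 4 were post-enriched and 0 post-reduced by edgeR glmTreat, and their median was 0.28 on the log2 scale, where 7.29% of all tested genes were post-enriched. At an unadjusted p under 0.05, 1 of them was lower by the same test, and DESeq2 called 3 higher and 0 lower. Against no change, 18 were higher and 9 lower at an FDR below 0.05 (edgeR), where 24.4% and 26.1% of all tested genes were. *Lpin*, the fly lipin, a phosphatidic acid phosphatase, measured 1970, 1975 and 1458 CPM post-isolation, against 335, 369 and 359 CPM pre-isolation. Its log2 fold change of 2.34 ± 0.14 (SE, FDR 7.72e-07, edgeR glmTreat) contrasted with the 0.14 of *laza*, which forms the same product.

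*Ipk1*, an inositol phosphate kinase, measured 302, 294 and 191 CPM post-isolation, against 54.2, 40.9 and 50.1 CPM pre-isolation. All post-isolation samples were higher, with a log2 fold change of 2.44 ± 0.18 (SE, FDR 4.01e-06, edgeR glmTreat). *wun*, a lipid phosphate phosphatase, rose by a log2 fold change of 1.52 ± 0.14 (SE, FDR 0.00317, edgeR glmTreat). *PI4KIIalpha*, a 4-kinase of endosomes and Golgi, rose by 1.38 ± 0.15 (SE, FDR 0.0217, edgeR glmTreat). The call of *PI4KIIalpha* was lost in DESeq2 and when any sample other than post-isolation replicate 3 was left out, and with library size alone neither it nor *wun* was called.

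Several other enzymes and partners of the members did not pass the 2-fold test. The 3 other diacylglycerol kinases, *Dgk*, *CG31140* and *CG34384*, had log2 fold changes of -0.75, -0.30 and -0.91, against 2.58 for *rdgA*, and all 3 were lower against no change at an FDR below 0.05 (edgeR). *stmA* and *TTC7*, partners of *PI4KIIIalpha* at the plasma membrane, had log2 fold changes of 0.56 and 0.90, against 1.83 for the kinase itself. Both partners were higher against no change at an FDR below 0.05 (edgeR). *Vap33*, the endoplasmic reticulum protein that anchors RDGB, had -0.59 and was lower by that same test. *Itpr*, the inositol trisphosphate receptor, had 0.17 and did not pass it.

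**Figure D4:**
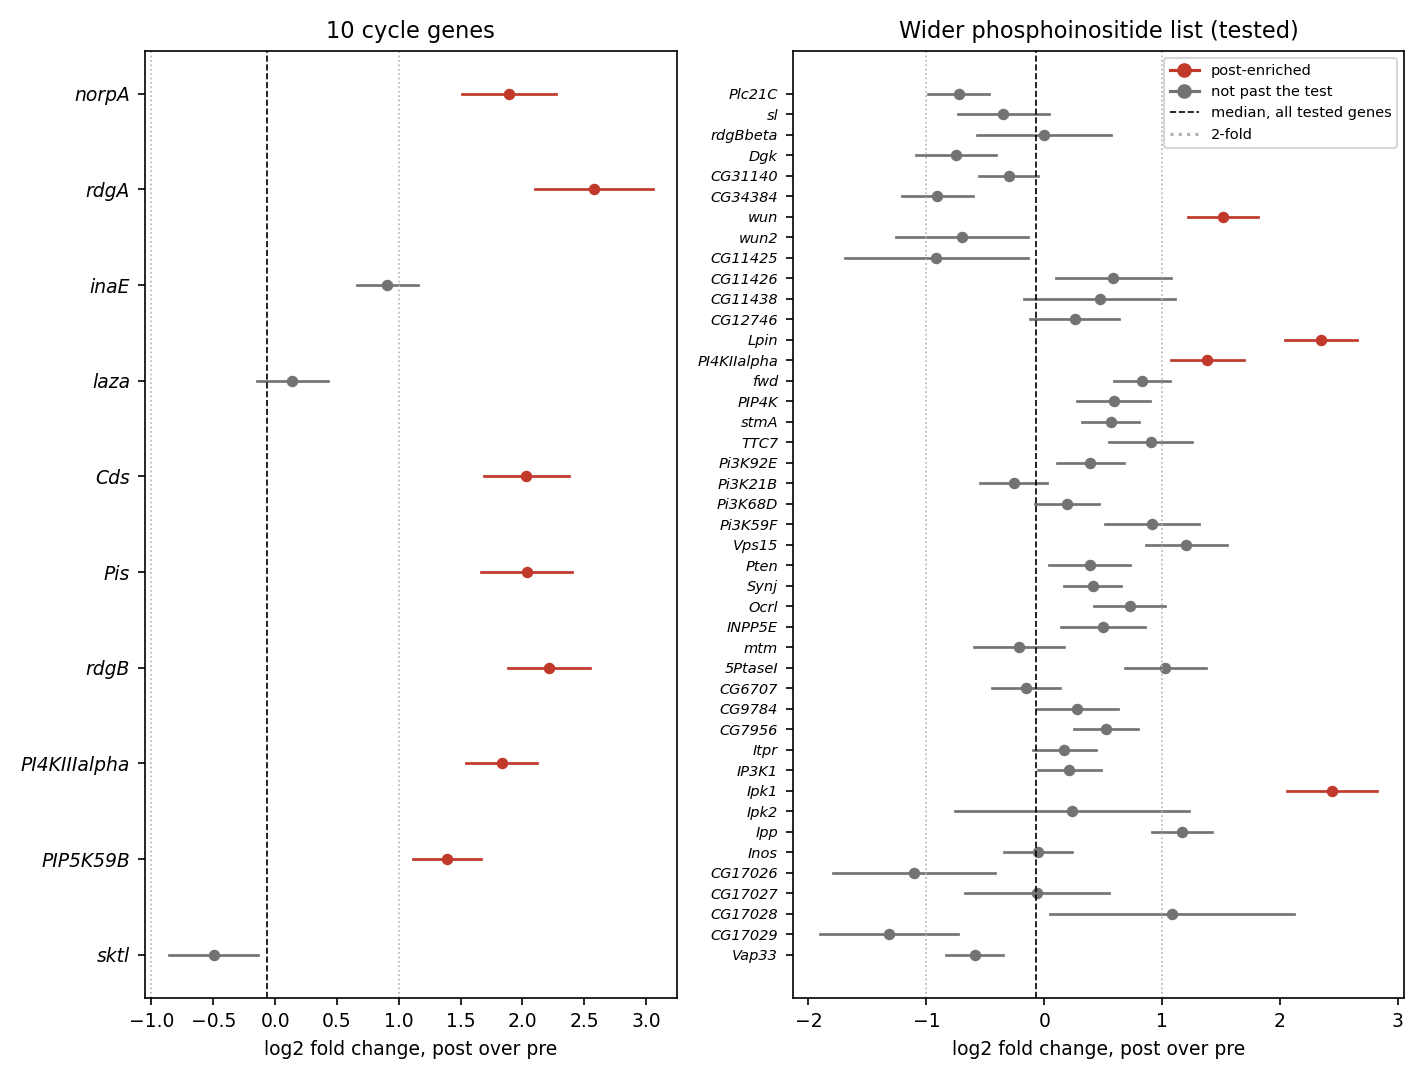
Log2 fold change, post-isolation over pre-isolation, with 95% intervals from the edgeR fit, for the 10 cycle genes (left) and the 43 tested genes of the wider list (right), where red marks post-enriched genes, dotted lines a 2-fold change and the dashed line the median of all tested genes. The 7 post-enriched cycle genes lie between 1.39 (*PIP5K59B*) and 2.58 (*rdgA*), and 4 of the wider list are post-enriched, while *inaE* (0.91), *laza* (0.14 with TMM and -0.30 with library size alone) and *sktl* (-0.50) did not pass the 2-fold test.

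Position and size were not used to choose the genes. Of the 10 members, 6 lie on chromosome X (*norpA*, *rdgA*, *inaE*, *Pis*, *rdgB* and *PI4KIIIalpha*), where 16.5% of tested genes with a position lie. Among tested X-linked genes 6.67% were post-enriched, close to the 7.29% of all tested genes. The median span of the members was 8808 bp, against 2696 bp over tested genes, and their median length of merged exons was 5780 bp, against 2022 bp. *Pis*, with a span of 2320 bp and 1652 bp of merged exons, lay below both medians of tested genes, and *laza* below that of span. *rdgA* spans 122409 bp with 11.2% of it exonic, and *laza* is a single exon of 2316 bp.

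The profile nearest to *norpA* over the 6 samples, by the root mean square difference of centred log2 CPM, was that of *kek6* (0.0393), followed by *l(1)G0289* (0.0461), *didum* (0.0532), *Pkn* (0.0600) and FBgn0265988 (0.0615). *kek6* measured 972, 769 and 575 CPM post-isolation, against 228, 208 and 211 CPM pre-isolation. The nearest to *rdgA* were *Mob2* (0.0796), *lncRNA:CR45588* (0.0915), *CG15824* (0.0959), *ninaG* (0.101) and *stops* (0.106). *ninaG*, an oxidoreductase of visual chromophore synthesis, measured 317, 249 and 156 CPM post-isolation, against 40.0, 35.5 and 39.0 CPM pre-isolation. Both were lowest of the post-isolation samples at replicate 3, as their partners were. Nearness was taken over these same 6 samples, so this is no separate observation. An offset of 0.5 was added to each CPM before the log2, which narrows differences at low levels. *lncRNA:CR45588* had only 38, 36 and 18 raw counts post-isolation and 1 in each pre-isolation sample. Its log2 fold change in the edgeR fit was 4.92 ± 0.94 (SE), against 2.58 for *rdgA*, so its place rests on the offset.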

How the data were processed

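Reads of 50 bp were trimmed by the authors (Trimmomatic) and aligned to BDGP6 (TopHat), and the deposited counts per gene came from HTSeq in strand-specific mode, without normalization. Libraries were depleted of ribosomal RNA. The deposited CPM values, which the authors took over the 5262 genes of a filtered table, were not used for tests. Alignments assigned to no gene, 93.4% to 94.4% of all post-isolation and 95.3% to 95.6% of all pre-isolation, stayed out of library sizes. Most of these were not unique, at 86.0% to 88.7% of all alignments post-isolation and 91.1% to 91.7% pre-isolation. Among unique alignments, 48.8% to 52.4% post-isolation and 44.8% to 45.5% pre-isolation matched no counted gene. Positions and lengths came from Ensembl's annotation of BDGP6, which held 17252 of the 17558 genes (98.3%). The symbol of *PI4KIIIalpha* was matched through a RefSeq synonym.

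The 10378 genes that exceeded a CPM of 1 in 3 or more samples were fitted in edgeR 4.0.16 (R 4.3.3) with TMM factors, glmQLFit and glmTreat against a fold of 2, at a Benjamini-Hochberg FDR of 0.05. Standard errors and 95% intervals came from the quasi-likelihood F statistic. Ratios used raw counts plus 0.5 and exact permutation. Simulated counts with 200 changed genes among 10378 gave 95.5% recovery with 0 false calls. Unchanged genes were given no change at all, so false calls against the 2-fold threshold were unlikely from the start. Errors near that threshold were not tested. The changed genes were well counted, with large changes balanced in direction, and no replicate was made to stand apart. Recovery of smaller changes, such as that of *PIP5K59B*, was not tested.

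The members and gene lists were chosen with earlier results of these data known. All members were named, with called genes of the wider list, a few of its other enzymes of the same reactions (taken by role, after their values were seen), the partners in the ratios, and the 5 tested genes nearest in profile to *norpA* and to *rdgA*. Of the wider list, *vib*, *Pld*, *Sac1* and *IP3K2* could not be matched and are not analysed here, nor is the ratio of *rdgB* to *vib*. *fab1* was listed at 0 in all 6 samples.

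The labels mark equal replicate numbers as paired biological replicates. Deviations of same-numbered samples from their group means correlated at 0.00933, 0.0476 and -0.0134. The alternatives were DESeq2 1.42.0, RLE factors, library size alone, other filters, the authors' filtered table, tests against no change, a replicate block, leaving out mitochondrial and ribosomal protein genes, leaving out each sample, and the legacy quasi-likelihood fit. The last, and the test against no change at any fold, were added after seeing the data. Counting error was limited by depth as given above. Promoter and protein sequences were not used here. Python 3.11.15 was used for tables (pandas 2.3.3), permutation tests (scipy 1.17.1 with numpy 2.4.6) and plots (matplotlib 3.10.9).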

Additional observations from a re-analysis of the deposited data

How the results depend on the processing

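Over 17 alternatives for each of the 10 genes, 165 of 170 values kept their direction and their side of the threshold. The tests against no change reused the fold changes of the edgeR fit used above, so direction could not change there. With a fold above 2 asked, genes under 2-fold could not be called. Changes were *PIP5K59B*, lost with library size alone (0.94) and without post-isolation replicate 2 (1.31), *inaE* (0.91) and *sktl* (-0.50), called once no minimum fold was asked, and *laza*, reversed to -0.30 with library size alone. Of all tested genes, 451 were post-enriched with library size alone, 480 in the authors' filtered table, 1375 in the test against no change with a fold above 2 and 2535 at any fold, against 757 in the edgeR fit used above. Post-reduced genes numbered 1253 with library size alone, 278 in DESeq2, 1483 with a fold above 2 and 2707 at any fold, against 508 in the edgeR fit used above. Of the 10 members, 1 was lower at any fold. Of the wider list, 2 were post-enriched with library size alone, 7 with a fold above 2 and 18 at any fold, and 1, 2 and 9 were post-reduced in the same order. With 1 sample left out at a time, post-enriched genes ranged from 601 to 1010, post-reduced genes from 358 to 740, post-enriched members from 6 to 7 with 0 post-reduced, and post-enriched genes of the wider list from 3 to 6 with 0 post-reduced. The log2 ratio of *Cds* to *Pis* ranged from -0.033 to 0.062, negative without post-isolation replicate 1 (-0.0092), without post-isolation replicate 3 (-0.033) and without pre-isolation replicate 1 (-0.018), and the others from 1.71 to 2.18 (*PIP5K59B* to *sktl*), 2.39 to 2.88 (*norpA* to *Plc21C*), 2.06 to 2.80 (*rdgA* to *laza*) and 0.80 to 1.11 (*norpA* to *inaE*). With the replicate block, 740 genes were post-enriched and 523 post-reduced, with 7 and 0 of the members, and no call of a member or of the wider list changed. The cause of these changes was not tested. With 3 samples per group, ratios cannot reach p below 0.1 by exact permutation, or below 0.25 by sign flipping of pairs, and *sktl* rests on the fewest counts.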
